A study of Sorghum bicolor with 63 samples.

Results

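Leaf and primary root of sorghum were compared on normal nitrate, before any nitrate was withdrawn. The comparison takes the 3 leaf libraries and the 3 primary root libraries labelled normal nitrogen at 0 h, joined by gene ID, which are 6 of the 63 libraries of the series. All plants were Sorghum bicolor BTx623, the inbred line of the reference genome, grown in nutrient solution with nitrate to 21 days after germination, under 16 h of light and 8 h of dark. No transgene, mutation or treatment separated the groups, so tissue is the only labelled difference between them. The other 57 libraries are lateral root at 0 h and all 3 tissues in the later groups. Those are 0.5, 3 and 24 h without nitrate, groups labelled 24.5 and 48 h with nitrate returned at 24 h, and a 48 h control. The last is labelled a recovery control, and the methods of the paper do not describe it or its nitrate supply. For the 48 h group the sources differ, with 24 h of recovery by the methods and 48 h by the protocol of the labels. A library is a pool of plants (5 by the sample labels, 10 to 15 by the methods), and whether leaf and root of a replicate came from the same plants is not stated. By the methods, leaf samples were fully developed leaves, so that mature blades were set against a growing organ.

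A sorghum leaf carries out C4 photosynthesis: light is harvested by chlorophyll-binding antenna proteins, and CO2 is first fixed in mesophyll cells and then handed to the Calvin-Benson cycle in bundle sheath cells. A root takes up nitrate and ammonium through families of membrane transporters, lives on sucrose that the shoot exports, and keeps dividing at its tip. Nitrate is reduced to nitrite by nitrate reductase and to ammonium by nitrite reductase in the plastid. Ammonium then enters amino acids through glutamine synthetase (GS) and glutamate synthase (GOGAT), in either organ.

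Expression is given in TPM, a share of transcripts corrected for transcript length and set so that every library sums to the same total. The deposited tables hold 35567 genes. Libraries of a tissue correlated at 0.985 to 0.990 in leaf and at 0.977 to 0.994 in root (Pearson's r across genes on log2(TPM + 1), where genes are not independent replicates), and a leaf with a root library at 0.686 to 0.706. The number of genes that reached 1 TPM was 17647 to 17826 per leaf library and 21290 to 21576 per root library. The 10 most abundant genes held 13.2 to 14.2% of all TPM in leaf and 3.67 to 4.09% in root. Between 252 and 282 genes made up the first 500000 TPM of a leaf library, against 1150 to 1340 genes in a root library. TPM carry no record of the number of reads, so the depth is unknown and the error of each value is the spread between 3 libraries.

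Genes that reached 1 TPM in 3 or more of the 6 libraries were tested with limma on log2(TPM + 1). A gene was called when its Benjamini-Hochberg adjusted p was under 0.05 and its leaf-minus-root difference was over 1 in size on that scale, which understates the differences of genes with low TPM. Of 22234 genes tested, 14061 were called (63.2%). Of these, 3104 were higher in leaf (14% of the genes tested) and 10957 were higher in primary root (49.3%). At a difference over 3, 1248 genes were higher in leaf (5.61%) and 2746 higher in root (12.4%). The groups did not overlap in 86.6% of the genes tested, with all leaf libraries above all root libraries in 19.1% and below them in 67.5%.

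These counts depend on the scale. The median leaf-minus-root difference of all genes tested was -0.99, with the fixed total of a leaf library held by fewer genes, as given above. Scaling the libraries by the median of ratios, which sets the typical gene equal, adds 0.97 to the leaf-minus-root difference of an abundant gene and takes the median to -0.16. On that scale 4887 genes were higher in leaf (22%) and 6583 higher in root (29.6%), and with quantile normalization 5027 (22.6%) and 6342 (28.5%). Genes higher in leaf thus made up 22.1% of the calls on TPM, 42.6% after median-of-ratios scaling and 44.2% after quantile normalization. The differences below are on log2(TPM + 1). In bulk tissue, fewer cells of a type and less RNA per cell cannot be told apart.

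**Figure D1:**
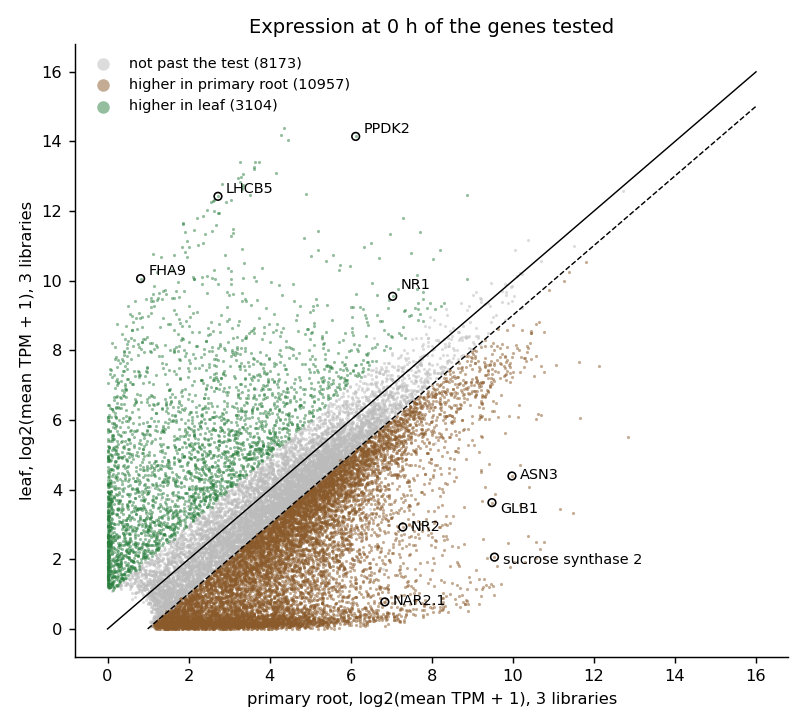
Mean expression of the 22234 genes tested in 3 primary root libraries (horizontal axis) and 3 leaf libraries (vertical axis), both as log2(mean TPM + 1), with genes higher in leaf in green (3104), genes higher in root in brown (10957) and the rest in grey (8173). The solid line marks equal levels and the dashed line the median difference of -0.99, along which the cloud is centred, and circles mark named genes.

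The genes with the largest differences were far apart in both directions. The 10 largest in leaf exceeded root by 9.72 to 10.16 on the log2 scale and the 10 largest in root exceeded leaf by 8.30 to 8.73. The files pair gene IDs with no names, and only 651 genes have a name or a description in the supplementary tables of the paper, which were chosen by the authors for their response to nitrate or their place in its network. Among the 10 largest, 1 has a description in leaf and 0 in root. The largest difference in leaf was that of SORBI_3010G160700, at 11472, 11377 and 9511 TPM in leaf and 8.52, 5.86 and 11.7 TPM in root. The most abundant leaf gene, SORBI_3007G071500, stood at 21837, 20814 and 21798 TPM in leaf against 18.5, 15.8 and 24.4 in root. The most abundant root gene, SORBI_3005G046700, stood at 7850, 7352 and 6657 TPM in root against 35.3, 41.5 and 57.0 in leaf. In each of these genes the tissues did not overlap. The gene second in abundance in root did not pass the test (6700 TPM in root and 6155 TPM in leaf, adjusted p = 0.59 by limma), but was called higher in root after quantile normalization (-1.82). Of the 50 most abundant genes of each tissue, 48 were called higher in leaf for the leaf set and 44 higher in root for the root set. Those sets were picked by level in the libraries that gave the calls, which favours a call in that direction. Of all genes tested, 14% were called higher in leaf and 49.3% higher in root.

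Genes of the photosynthetic light reactions were higher in leaf without exception. All 9 genes described as photosystem or antenna proteins were tested and all 9 were called (against 14% of all genes), with a median difference of 8.83 against -0.99 for all genes, and their summed level was 27842 to 33335 TPM in leaf and 49.6 to 56.9 TPM in root. The described gene with the largest difference was the photosystem I antenna protein 2 (SORBI_3002G352100). It stood at 8386, 7863 and 7656 TPM in leaf and at 6.55, 8.75 and 9.85 TPM in root, a difference of 9.75 ± 0.15 (SE, limma adjusted p = 8.2e-09). A chlorophyll a-b binding protein of the main antenna (SORBI_3002G288300) stood at 10027, 8947 and 9289 TPM in leaf and at 9.54, 11.2 and 12.9 TPM in root. LHCB5, a minor antenna protein of photosystem II, had 6274, 5177 and 5041 TPM in leaf and 5.36, 5.21 and 6.26 TPM in root. In all 3, the tissues were far apart and the libraries of a tissue were close to each other. The smallest difference of the list was that of Psb28, an assembly protein of photosystem II (208 TPM in leaf, 11.9 TPM in root, 4.02).

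The electron transport chain behind the photosystems followed the same order. A gene with the Rieske iron-sulfur domain, the domain that carries electrons in the cytochrome b6-f complex, stood at 4127, 4581 and 3743 TPM in leaf and at 3.37, 5.32 and 4.79 TPM in root (9.57 ± 0.16). The 5 genes of the chloroplast NDH complex and cyclic electron flow form a list drawn up with the values known. All 5 were called higher in leaf (against 14% of all genes), with a median difference of 7.81. Subunit O of that complex (SORBI_3003G433900) reached 429, 374 and 411 TPM in leaf and stayed under 1 TPM in each root library. The protein kinases STN7 and STN8, which phosphorylate antenna and photosystem II proteins, stood at 1086 and 105 TPM in leaf and at 9.12 and 0.746 TPM in root. The cyclase that closes the fifth ring of chlorophyll (SORBI_3003G132100) had 2809, 2598 and 2476 TPM in leaf and 5.25, 8.68 and 8.82 TPM in root. The sigma factors sigF and sigA, which direct the plastid's own RNA polymerase, were also higher in leaf, at 238 against 4.23 TPM and at 157 against 0.717 TPM.

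Genes of carbon metabolism lay on both sides. PPDK2, pyruvate phosphate dikinase, which regenerates the CO2 acceptor of the C4 cycle, was among the 5 most abundant genes of leaf, at 19106, 18339 and 16926 TPM. In root it stood at 80.6, 57.0 and 68.4 TPM, a difference of 8.04 ± 0.15. PEPC6, a phosphoenolpyruvate carboxylase, had the opposite order, with 12.0, 12.0 and 12.7 TPM in leaf and 63.7, 84.9 and 77.3 TPM in root (-2.52 ± 0.13). The Calvin-Benson enzyme sedoheptulose-1,7-bisphosphatase had 812, 965 and 967 TPM in leaf and 0.218, 2.32 and 1.16 TPM in root, and the chloroplast fructose-1,6-bisphosphatase 329 and 0.486 TPM on average. G6PD1, glucose-6-phosphate dehydrogenase, which supplies NADPH outside photosynthesis, was higher in root at 277, 338 and 283 TPM against 49.8, 42.7 and 43.2 TPM in leaf (-2.70 ± 0.12). PGM, phosphoglucomutase, was higher in root by 1.82 ± 0.21, a call that was lost after median-of-ratios scaling (-0.89) and kept after quantile normalization.

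Genes of sucrose metabolism had opposite orders. The genes of sucrose phosphate synthase, which makes sucrose for export, were higher in leaf, with 328, 363 and 267 TPM against 1.06, 0.944 and 0.692 TPM in root for SORBI_3003G403300. The description of this gene names sucrose synthesis in pollen germination. A gene of sucrose synthase 2 (SORBI_3001G344500), which cleaves sucrose in importing tissue, had 966, 524 and 752 TPM in root and 2.79, 3.27 and 3.47 TPM in leaf, a difference of -7.44 ± 0.21. The large subunit of ADP-glucose pyrophosphorylase described as subunit 1, the entry to starch synthesis, stood at 508, 492 and 512 TPM in leaf and at 0.678, 1.45 and 0.874 TPM in root. Over the 9 genes described as sucrose or starch enzymes, chosen with the values known, 5 were higher in leaf and 4 in root. The shares of all genes were 14 and 49.3%. Of those 4 genes, 2 stayed called after median-of-ratios scaling. Of 4 genes of photorespiration, also chosen with the values known and acting in the pathway that recycles the by-product of oxygen fixation, glycolate oxidase (436 and 1.83 TPM), hydroxypyruvate reductase (803 and 4.52 TPM) and a catalase (956 and 4.01 TPM) were higher in leaf. The fourth, a serine hydroxymethyltransferase, was at 61.0 TPM in leaf and 56.4 TPM in root (limma adjusted p = 0.33), and was called higher in leaf after median-of-ratios scaling.

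Not every chloroplast protein was a leaf gene. Of 79 genes whose description places the protein in the chloroplast, a list drawn up with the values known, 75 were tested, 57 were called higher in leaf (against 14% of all genes), 4 higher in root (against 49.3%) and 14 neither, with a median difference of 3.64. After median-of-ratios scaling the 57 and 4 became 62 and 3. The 4 higher in root were a stearoyl-ACP desaturase, which makes the first double bond of plastid fatty acids (43.7 TPM in root, 0.182 TPM in leaf), a chaperonin 60 subunit alpha 2 (3.1 and 0.466 TPM), an S-sulfocysteine synthase (6.05 and 1.18 TPM) and a senescence-inducible chloroplast protein (21.2 and 3.27 TPM). The call of the chaperonin was lost after both scalings and that of the synthase after quantile normalization. The plastid and mitochondrial GS (369 TPM in leaf, 400 TPM in root), the chloroplast malate dehydrogenase (125 and 227 TPM) and the chloroplast aspartate aminotransferase 3 (175 and 338 TPM) were among the 14 that were not called.

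**Figure D2:**
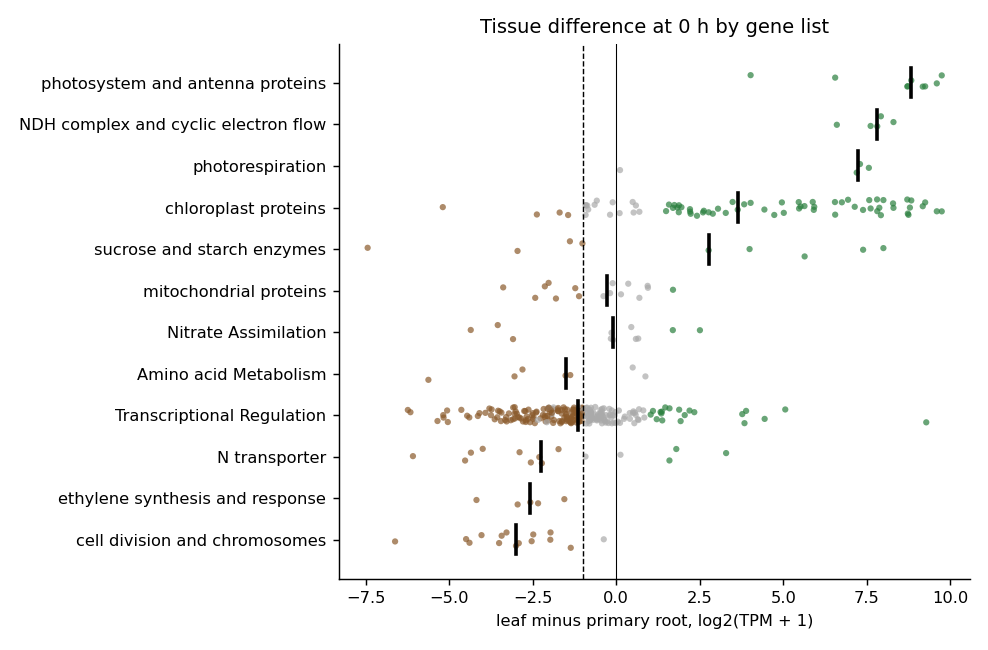
Leaf-minus-root difference at 0 h on log2(TPM + 1) for each tested gene (points; green, called higher in leaf; brown, called higher in root; grey, not called) of 12 gene lists, of which NDH, photorespiration, chloroplast, sucrose and starch, mitochondrial, ethylene and cell division were drawn up with the values known, with the median of each list as a black bar and the median of all 22234 genes, -0.99, as a dashed line. Medians run from 8.83 for photosystem and antenna proteins to -3.0 for cell division and chromosomes, and nitrate assimilation lies near 0 with members on both sides.

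Nitrogen transporter genes were found on both sides. Of 15 nitrate and ammonium transporter genes of the study's network, 14 were tested, 9 were called higher in root and 3 higher in leaf (against 49.3 and 14% of all genes), with a median difference of -2.27 against -0.99, and the same counts were found after median-of-ratios scaling. The largest difference was that of NAR2.1, the partner protein that NRT2 transporters need for high-affinity nitrate uptake. It had 101, 128 and 112 TPM in root and 1.19, 0.603 and 0.349 TPM in leaf (-6.09 ± 0.20, limma adjusted p = 1.2e-07). Both NRT2.1 loci, of the high-affinity nitrate transporters, were higher in root too. SORBI_3004G009500 stood at 19.4, 24.1 and 15.2 TPM in root and at 0.235, 0.322 and 0.239 TPM in leaf, and SORBI_3004G009400 at 4.64, 5.85 and 3.78 TPM in root and at 0.119, 0.257 and 0.0889 TPM in leaf. In every root library NAR2.1 was above both NRT2.1 loci together.

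Ammonium transporters of the AMT1 family had opposite orders. AMT1.3 stood at 240, 228 and 253 TPM in root and at 8.91, 9.42 and 10.1 TPM in leaf (-4.53 ± 0.10). AMT1.1a stood at 252, 296 and 204 TPM in leaf and at 90.1, 64.4 and 60.6 TPM in root (1.80 ± 0.19), and no library of one tissue reached those of the other. Of the AMT2 family, AMT2.4 (49.7 TPM in root, 5.93 TPM in leaf) and AMT2.3 (3.47 and 0.346 TPM) were higher in root, the latter not after quantile normalization. AMF1-2, listed by the study with the transporters, had 55.2 TPM in root and 28.8 TPM in leaf, a difference of -0.92 that did not pass the size limit and was 0.02 after median-of-ratios scaling.

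Transporters of the NRT1/PTR family, which carry nitrate and other solutes, showed the same division. NPF2.3 was the most abundant of the 15 genes in root, at 289, 318 and 319 TPM against 13.6, 12.7 and 16.4 TPM in leaf (-4.35 ± 0.12). NRT1.1, the transceptor of the family in Arabidopsis, was present in both, at 131, 171 and 149 TPM in root and 28.0, 31.8 and 33.9 TPM in leaf (-2.23 ± 0.13). NPF4.7 was higher in root by 2.56 ± 0.25. NRT1.3 had the reverse order, with 44.8, 38.0 and 33.8 TPM in leaf and 6.16, 1.95 and 2.15 TPM in root (3.29 ± 0.33), the first root library being the highest of its group. NRT2.5 was the only high-affinity nitrate transporter of the list that was higher in leaf, at the low levels of 2.75, 1.58 and 4.47 TPM against 0.270, 0.240 and 0.226 TPM. NPF3.6 did not pass the test (2.09 and 1.83 TPM, adjusted p = 0.53 by limma) and was called higher in leaf after quantile normalization (1.16), and NPF4.9 was too low for the test (1.05 TPM in root, 0.217 TPM in leaf).

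**Figure D3:**
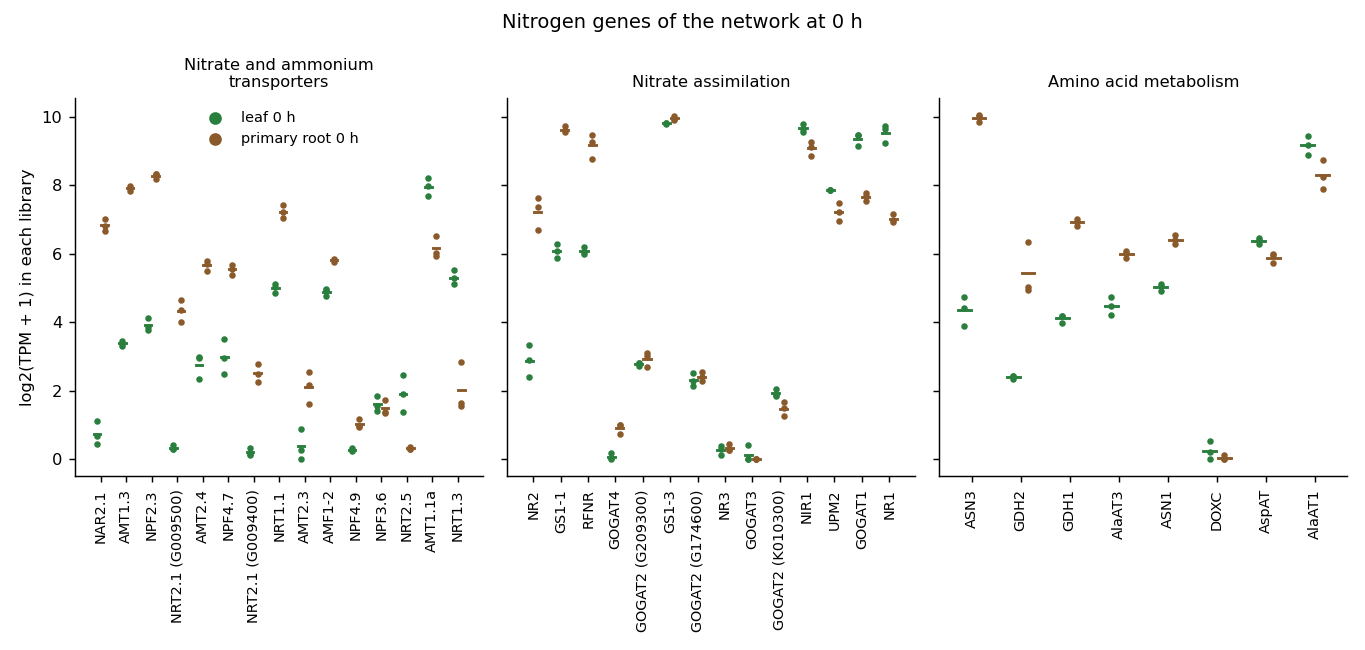
Level of the nitrogen genes of the network in each library at 0 h as log2(TPM + 1) (green points, 3 leaf libraries; brown points, 3 primary root libraries; bars, means), ordered within each panel from the largest excess in root to the largest excess in leaf. NAR2.1, AMT1.3, NPF2.3, NR2 and ASN3 separate towards root, NR1, GOGAT1, AMT1.1a and NRT1.3 towards leaf, and GS1-3 lies at the same height in both.

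The 2 nitrate reductase genes that were tested had opposite orders. NR1 was the most abundant annotated nitrate reductase gene of leaf, with 796, 854 and 600 TPM against 122, 143 and 125 TPM in root (2.50 ± 0.15, limma adjusted p = 2.2e-06). NR2 was far higher in root, with 103, 199 and 163 TPM against 4.28, 9.04 and 6.48 TPM in leaf (-4.36 ± 0.30). In root both stood at a like level, 130 and 155 TPM on average with overlapping libraries, while in leaf NR1 was 750 TPM and NR2 6.60 TPM. NR3 was under 0.4 TPM in all 6 libraries and was not tested. NIR1, nitrite reductase, which works in the plastid with ferredoxin, had 801, 890 and 757 TPM in leaf and 465, 619 and 551 TPM in root. Its difference of 0.59 ± 0.14 was below the size limit and became a call only after median-of-ratios scaling (1.55). UPM2, an enzyme of the siroheme cofactor that nitrite reductase carries, had 234, 233 and 234 TPM in leaf and 122, 177 and 149 TPM in root (0.66), and was called after both scalings. RFNR, the root type of ferredoxin-NADP reductase, which passes electrons from NADPH to ferredoxin, was higher in root at 440, 714 and 611 TPM against 62.9, 72.5 and 65.4 TPM in leaf (-3.09 ± 0.18). G6PD1, described above, had the same order.

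On TPM, the most abundant annotated gene of ammonium assimilation was nearly even between the tissues. GS1-3, a cytosolic GS, stood at 907, 890 and 910 TPM in leaf and at 956, 1049 and 986 TPM in root (-0.14 ± 0.10, adjusted p = 0.23 by limma), and the small gap between the groups did not pass the test. Median-of-ratios scaling, which adds 0.97 to the difference of an abundant gene, left GS1-3 without a call. GS1-1 was higher in root, with 749, 783 and 843 TPM against 58.1, 66.6 and 76.5 TPM in leaf (-3.55 ± 0.12). Among the annotated GS genes, GS1-3 was thus the most abundant in both tissues, followed by the plastid form in leaf and by GS1-1 in root. GOGAT1 was higher in leaf, at 705, 705 and 563 TPM against 203, 217 and 186 TPM in root (1.69 ± 0.13). The 3 loci that the network names GOGAT2 were between 1.81 and 6.74 TPM on average in either tissue and none was called, although 1 or 2 of them were after another scaling. Over the 14 genes of nitrate assimilation, 11 were tested, 2 were higher in leaf and 3 in root (against 14 and 49.3% of all genes), with a median difference of -0.10. After median-of-ratios scaling 5 were higher in leaf and 3 in root. Their summed level was 3226 to 3734 TPM in leaf and 3176 to 3916 TPM in root, and these ranges overlap. This evenness depends on the scale. The log2 ratio of leaf to root in summed level was -0.02 on TPM and 0.94 after median-of-ratios scaling.

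Of 8 network genes of amino acid metabolism, 7 were tested, 5 were called higher in root and 0 in leaf (against 49.3 and 14% of all genes), which became 3 and 2 after median-of-ratios scaling. ASN3, an asparagine synthetase, which makes the main amide for nitrogen transport, had 928, 1060 and 1035 TPM in root and 13.8, 25.9 and 20.3 TPM in leaf (-5.63 ± 0.21). ASN1 had 84.5 TPM in root and 31.9 TPM in leaf (-1.38 ± 0.11), a call lost after either scaling. The glutamate dehydrogenase genes GDH1 (112, 128 and 122 TPM in root, 14.7, 17.3 and 17.2 TPM in leaf) and GDH2 (79.6, 30.0 and 32.0 TPM in root, 4.41, 4.34 and 4.05 TPM in leaf) were higher in root under every scaling. The first root library held more GDH2 than the other two. Of the alanine aminotransferases, AlaAT3 was higher in root by 1.52 ± 0.15 on TPM and by 0.58 after median-of-ratios and 0.86 after quantile scaling, where it was no longer called. AlaAT1 had 698, 577 and 473 TPM in leaf and 430, 235 and 305 TPM in root, a difference of 0.87 that was over 1 when leaf replicate 3 or root replicate 1 was left out (1.01 and 1.1) and after both scalings. AspAT, an aspartate aminotransferase, stood at 82.7 TPM in leaf and 58.6 TPM in root (0.49), and was called higher in leaf after median-of-ratios scaling (1.44) and after quantile normalization (1.02).

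Transcription factors of the nitrogen network had a root share near that of all genes and a leaf share below it, a gap that was not tested. Of 255 such genes, 234 were tested, 127 were called higher in root and 20 higher in leaf (against 49.3 and 14% of all genes), with a median difference of -1.15 against -0.99 for all genes. After median-of-ratios scaling the counts were 77 and 34 (against 29.6 and 22% of all genes). The largest difference towards leaf was that of FHA9, a gene of the forkhead-associated family, at 1077, 1052 and 1073 TPM in leaf and 0.240, 1.05 and 0.992 TPM in root (9.28 ± 0.19). HB66 (homeobox), HSF13 (heat stress factor), bHLH68 and ZHD2 followed, with differences of 5.06, 4.44, 3.89 and 3.84. HB66 was at 11.5 TPM in the first root library and at 0.826 and 0.901 TPM in the others. Towards root the largest were IAA15 (67.0, 95.0 and 103 TPM in root, 0, 0.331 and 0.177 TPM in leaf, -6.24 ± 0.20) and IAA1 (152, 210 and 220 TPM in root, 4.54, 2.26 and 4.79 TPM in leaf), which bear the name of the Aux/IAA repressors of auxin response. Orphan207 had 329, 300 and 281 TPM in root and 2.34, 2.78 and 5.02 TPM in leaf. GRF1 (growth-regulating factor) and bZIP79 were higher in root by 5.18 and 5.17.

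The larger families are given by count. Of 32 tested genes named EREB, for the ethylene-responsive element binding family, 22 were higher in root and 0 in leaf (16 and 0 after median-of-ratios scaling). Of 27 NAC genes, 17 were higher in root and 0 in leaf, which became 11 and 3. Of 21 MYB genes, 15 were higher in root and 2 in leaf (12 and 3), and of 26 bZIP genes 15 and 1 (7 and 1). Of the 5 genes that the network names HSF, for heat stress factors, 2 were higher in leaf, 0 in root and 3 not called. A pair of genes described as heat stress factors outside that table were higher in root, as given with the markers of handling. These counts stand beside 49.3% of all genes higher in root and 14% higher in leaf, and after median-of-ratios scaling beside 29.6 and 22%. Whether a family stands apart from these shares was not tested.

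Genes of cell division were higher in root. Of 15 genes described as acting in mitosis, DNA replication, DNA repair or chromatin assembly, a list drawn up with the values known, 14 were called higher in root and 0 in leaf, against 49.3 and 14% of all genes, with a median difference of -3.0. After median-of-ratios scaling the counts were 13 and 0, against 29.6 and 22%. A histone H3 gene stood at 110, 186 and 180 TPM in root and at 0.607, 0.242 and 0.968 TPM in leaf (-6.62 ± 0.25). A gene of the MCM helicase family, which opens DNA for replication, had 23.9, 38.6 and 37.6 TPM in root and 0.268, 0.915 and 0.684 TPM in leaf. The spindle checkpoint gene MAD2 had 21.2, 33.9 and 30.0 TPM in root and 0.165, 0.378 and 0.301 TPM in leaf. In all 3 the first root library was the lowest of its group. The only member without a call was the repair gene RAD4, at 4.62 TPM in leaf and 6.27 TPM in root.

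All 3 network genes of ethylene synthesis were higher in root (against 49.3% of all genes), at most 0.829 TPM in any leaf library. ACS1 had 36.4, 15.9 and 11.8 TPM and ACS7 54.6, 22.4 and 37.7 TPM in root. These enzymes make ACC, from which ethylene is formed. The non-symbiotic haemoglobin gene GLB1 had 1009, 536 and 601 TPM in root and 10.1, 9.84 and 14.1 TPM in leaf (-5.82 ± 0.25). Peroxidases 7 and 11, of the class that acts in cell walls, were higher in root (20.0 and 16.0 TPM, both under 1 TPM in leaf). Peroxidase 25 was higher in root by 1.5, a call lost after both scalings. The aquaporin TIP2-1, a water channel of the vacuole membrane, had 145, 191 and 148 TPM in root and 35.1, 40.1 and 49.0 TPM in leaf (-1.94 ± 0.16, and -0.98 after median-of-ratios scaling, where it was not called).

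Of 3 genes described as sulfate or phosphate transporters, 2 were higher in leaf and 1 in root (against 14 and 49.3% of all genes). Sulfate transporter 3.3 stood at 125, 170 and 133 TPM in leaf and at 3.21, 1.42 and 2.68 TPM in root, and phosphate transporter 4;5 at 80.4, 101 and 61.1 TPM in leaf and at 3.83, 5.21 and 3.20 TPM in root. Sulfate transporter 3.5 had the other order (4.27 TPM in leaf, 17.8 TPM in root, -1.84), a call lost after both scalings. A 3-ketoacyl-CoA synthase, of the family that elongates fatty acids for wax, had 269, 233 and 190 TPM in leaf and at most 0.356 TPM in root. HAD2, a gene of the haloacid dehalogenase family in the network, had 1420, 1852 and 1862 TPM in leaf and 43.2, 45.3 and 49.8 TPM in root. CYP707A4, of the family that breaks down abscisic acid, had 80.4 TPM in leaf and 0.214 TPM in root.

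The tissue labels were checked against marker lists. The photosystem list and the Calvin-Benson gene stood in leaf as given above. Taken as root markers, NAR2.1 and both NRT2.1 loci summed to at most 1.54 TPM per leaf library and at least 125 TPM per root library. NRT2.5, of the same class but not summed here, had the other order (1.58 to 4.47 TPM in leaf, 0.226 to 0.270 TPM in root). No gene had a description matching the lists of Casparian strip, iron acquisition or C4 enzymes (PPDK2 comes from the network table). None of these markers was at 0 in all libraries of the other tissue. The 55 leaf genes with a mean of at least 2000 TPM summed to 312342 to 331879 TPM in leaf and to 1767, 1550 and 1553 TPM in the 3 root libraries, or 0.481 to 0.549% of the leaf level. For 42 of the 55, the mean in root was under 0.2% of that in leaf, with a median of 0.133%. Of 227 root genes with a mean of at least 500 TPM, 8 were under 0.2% in leaf, with a median of 18.8%. Of the genes with at least 10 TPM in every library of a tissue (8539 in leaf, 11978 in root), 30 leaf genes and 15 root genes were listed at 0 in all libraries of the other. Whether a low level of a leaf gene in root was made there was not tested. The list of pollen and seed markers, for tissues not sampled, matched 1 gene, the sucrose phosphate synthase SORBI_3003G403300. It was called higher in leaf (7.39), so this list gave no check on tissues that were not sampled. Of 4 genes on the list of heat shock and handling stress, 3 were tested. Of these, 2 were called higher in root and 0 in leaf (against 49.3 and 14% of all genes), and 1 in each direction after median-of-ratios scaling. The third gene tested had all leaf libraries above all root libraries and was the one called higher in leaf after that scaling. The list summed to 13.4 to 17.0 TPM in leaf and 23.6 to 54.1 TPM in root. The factor Spl7-like SORBI_3002G225300 was at 46.9 TPM in the first root library and at 15 and 14.1 TPM in the others. Its call towards root was lost without that library (-0.96), without the second leaf library (-1.25) and after both scalings (-0.61 and -0.57). SORBI_3003G226800, described as heat shock transcription factor 31, was higher in root by 2.08 (5.82 TPM in root, 0.593 TPM in leaf) and stayed called after both. The part of handling in the results was not tested.

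The order of the tissues was next followed through the 7 sampling groups, whose other libraries took no part in the calls at 0 h. Of the 42 genes in the network classes of nitrogen transport, nitrate assimilation, carbon and amino acid metabolism, 27 were called at 0 h, and 26 of these kept the sign of their difference of means in all 7 groups. Over all genes, 2942 of the 3104 called higher in leaf and 10499 of the 10957 called higher in root did so, a like share. The exception was NRT2.5, which was higher in leaf by 1.59 at 0 h and higher in root by 2.71 at 24 h without nitrate. The size of the difference moved more for some genes than for others. For the NRT2.1 locus SORBI_3004G009500 the leaf-minus-root difference was -4.0 at the start, -7.67 after 24 h, -8.25 at 24.5 h and -0.92 in the 48 h group with nitrate returned. In the 48 h control it was -1.37, so a small difference at 48 h was not particular to the group with nitrate returned. For NAR2.1 it stayed between -8.31 and -5.04, and for NR1 between 1.56 and 3.20. NR2 ran from -6.29 at 24 h to -1.76 at 0.5 h, and ASN3 from -8.20 at 24.5 h to -3.68 at 48 h. NIR1, which was not called at 0 h, had a difference of 1.23 at 0.5 h and of -1.64 at 24.5 h. These values beyond 0 h and the 48 h control are descriptions, and no test was run on them.

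**Figure D4:**
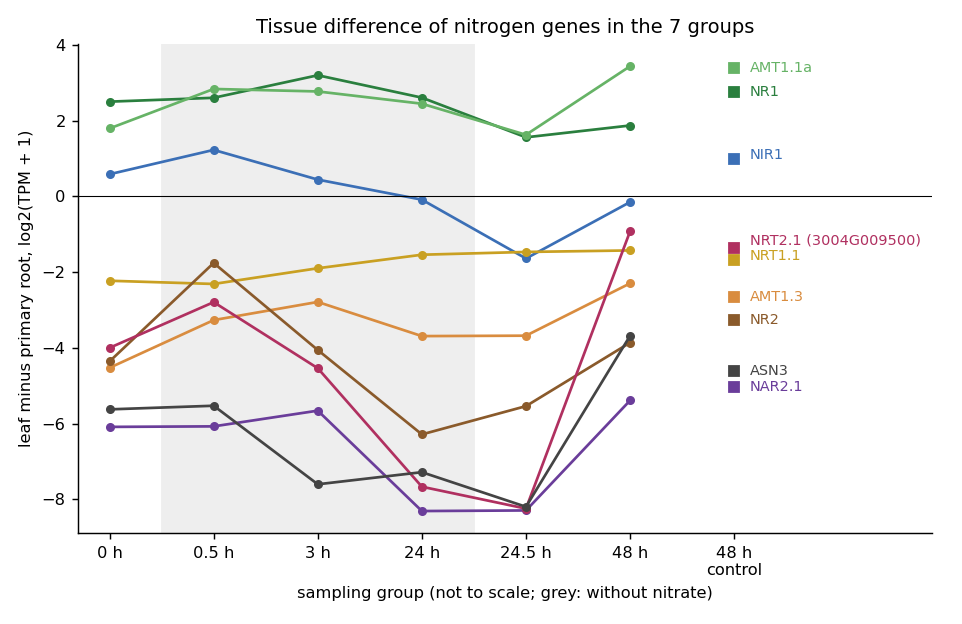
Leaf-minus-root difference of mean log2(TPM + 1) for 9 nitrogen genes in the 7 sampling groups (3 leaf and 3 root libraries each; times not to scale; grey band, without nitrate; squares, 48 h control). Differences of NRT2.1 (SORBI_3004G009500) run from -8.25 to -0.92, those of NR1 from 1.56 to 3.20, and NIR1 crosses 0. The group at 24.5 h includes a root library that stands apart, and the group at 3 h includes a root library raised in leaf genes.

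The same contrast in the 48 h control gave a second, separate set of 6 libraries. Of 22109 genes tested there, 12441 were called (56.3%), 3238 higher in leaf (14.6%) and 9203 higher in root (41.6%). Of the 3104 genes higher in leaf at 0 h, 2615 were called in the same direction at 48 h (84.2% of the genes of 0 h and 80.8% of those of 48 h), and 0 in the opposite direction. Of the 10957 genes higher in root at 0 h, 8551 were called again (78.0% and 92.9%) and 6 in the opposite direction. The first leaf library of this control was lower in leaf genes than the others, with 168469 TPM for the 55 most abundant against 286372 and 335464 TPM. Leaving out single libraries moved the number of calls in the control between 12023 and 13063. Over the 18 leaf and 18 root libraries of all 6 other groups, every library of leaf was above every one of root for 62.2% of the genes called higher in leaf, and every one of root above leaf for 70.9% of the genes called higher in root. For all genes tested the shares were 9.21 and 36.8%. The library labelled primary root 24.5 h replicate 3 stood apart, with 26275 TPM for the 55 leaf genes and 30736 genes at 1 TPM or more, and without it the shares were 73.8 and 71.5%. Next among the primary root libraries was 3 h replicate 3, with 10462 TPM for the 55 leaf genes. It was kept in both pairs of shares.

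Whether the tissue difference itself differed between 0 h and the 48 h control was tested in 1 limma fit of the 12 libraries, a test chosen after the data were seen. Of 22700 genes, 1066 passed (4.7%), at an adjusted p under 0.05 and a change over 1. Of 580 annotated genes tested at both, 42 passed. They included both NRT2.1 loci, AMT1.1a and AspAT, whose differences all moved towards leaf. In SORBI_3004G009500 the root libraries of the control stood at 1.31, 3.72 and 1.04 TPM, against 15.2 to 24.1 TPM at 0 h. AspAT stood at 76.4 to 88.1 TPM in leaf at 0 h and at 227 to 299 TPM in the control, and its tissue difference went from 0.49 to 2.65. AMT1.1a stood at 25.1 to 32.8 TPM in root in the control against 60.6 to 90.1 TPM at 0 h.

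**Figure D5:**
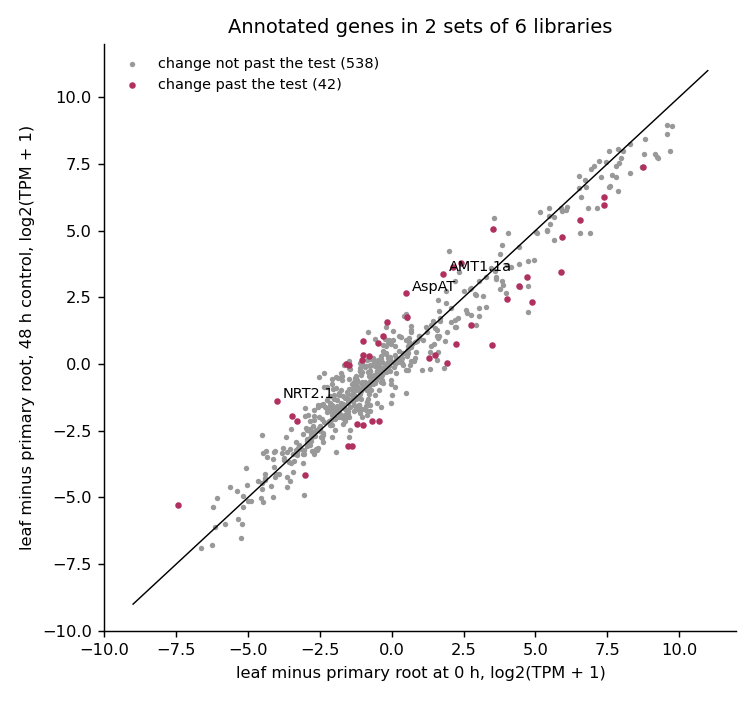
Leaf-minus-root difference on log2(TPM + 1) of 580 annotated genes at 0 h (horizontal axis) and in the 48 h control (vertical axis), each from 3 leaf and 3 root libraries, with the line of equality. Grey points (538) are genes whose difference did not change past the test and red points (42) are those whose difference did, among them NRT2.1, AMT1.1a and AspAT above the line.

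Lateral root at 0 h offered a further comparison for the same genes. Replicates 2 and 3 lay below all leaf libraries for 97.1% of the genes called higher in leaf, and above all leaf libraries for 90.9% of the genes called higher in primary root. The library labelled lateral root 0 h replicate 1 did so for 44.8 and 41.8%. Its mean correlation was 0.975 with leaf libraries and 0.711 with primary root libraries, against 0.731 with its own group, so it goes against its label and was used in no test here.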

How the data were processed

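The authors deposited TPM values, 1 table per tissue with 21 libraries each. Per the labels and methods, paired-end reads of poly(A) RNA went through Trimmomatic and STAR (BTx623 reference), TPM came from StringTie, and the authors' own differential expression used DESeq2. Sources differ on the number of plants pooled, the nutrient solution and the sequencer. Tables were joined by gene ID. Genes that reached 1 TPM in 3 or more of 6 libraries entered 1 limma fit of these libraries on log2(TPM + 1), with a trended eBayes step and Benjamini-Hochberg adjustment over all of them (limma 3.58.1, R 4.3.3). p-values measure the spread between pools of plants. Tested on simulated data, the fit recovered 200 of 200 genes at a log2 difference of 2 among 20964 genes, with 8 false calls. Only these 200 genes were changed there, all with a root mean over 3 on log2(TPM + 1), so recovery of low genes was not tested. The noise was normal, with the spread taken from the fit itself. Recovery where 63.2% of genes are called, as at 0 h, was not tested either. With 3 against 3, an exact permutation test of 1 gene cannot go below p = 0.1. Names come from the network table (319 genes) and description columns (346 genes) of the supplementary files, in 651 genes in all, and names there follow maize orthologs. Named genes are the 10 largest of each direction, the 2 most abundant called of each list and direction, all genes of 4 network classes, 5 regulators per direction and the 5 most abundant per tissue. Annotated genes outside that rule were chosen after their values were seen, as were the lists said to be so. Of 25 word lists, 9 matched 0 genes. Members and lists were chosen with earlier results of these data known. Carbonic anhydrase and NADP malic enzyme had no annotated gene, 0 gene IDs matched the RefSeq table, and sequences and coordinates were not used here. Tables were handled with Python 3.11.15, NumPy 2.4.6 and pandas 2.3.3, and figures drawn with matplotlib 3.10.9. Alternatives are a pseudocount of 0.1, no filter, a mean TPM of at least 5, 2 other scalings, a replicate block, no trend, 42 libraries in 1 fit, other thresholds and each library left out.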

Additional observations from a re-analysis of the deposited data

Results flagged for a closer look

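For 9 of the 94 named genes tested at 0 h, the leaf-minus-root difference changed between 0 h and the 48 h control, by limma's test of the difference between both differences (adjusted p under 0.05 and a change over 1, against 4.7% of all genes). Many named genes were picked by size, call or level in the 0 h libraries. These libraries also enter this test, so the count cannot be read as an excess over that share. The 2 groups also differ in the age of the plants, and the methods do not describe the nitrate supply of the control. Age cannot be told apart from any other difference between the groups. Groups held 3 libraries, too few for the test of a single outlying sample.

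In 4 genes the difference moved towards leaf. The NRT2.1 loci SORBI_3004G009500 and SORBI_3004G009400 changed by 2.63 (adjusted p = 0.0065) and by 2.13 (adjusted p = 0.0019). Their root libraries stood at 1.04 to 3.72 and 0.180 to 0.389 TPM in the control, below all root libraries of 0 h (15.2 to 24.1 and 3.78 to 5.85 TPM). AMT1.1a changed by 1.6 (adjusted p = 0.011) and AspAT by 2.16 (adjusted p = 0.0031).

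In 5 genes the difference moved towards root. Peroxidase 25 (SORBI_3003G050300) changed by -1.56, phosphate transporter 4;5 (SORBI_3002G293500) by -1.55, the plastid ribosomal protein L27 (SORBI_3003G408000) by -1.15, sucrose phosphate synthase (SORBI_3003G403300) by -1.41 and the root gene SORBI_3004G220300, which has no description, by -1.19, at adjusted p of 0.033, 0.012, 0.0070, 0.046 and 0.021. In the last, leaf stood at 24.0 to 28.9 TPM in the control and at 49.8 to 76.4 TPM at 0 h, and root at 2575 to 3475 TPM and 3091 to 3559 TPM. Without the first leaf library of the control, which was low in leaf genes, sucrose phosphate synthase changed by -1.11 and L27 by -1.06. Over each of the 12 libraries left out in turn, the 9 changes kept their sign.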

How the results depend on the processing

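At 0 h, where 14061 genes were called, the number of calls was 13950 to 14088 when each library was left out, 14117 with the replicate number as a block, 14056 without a trend, 14088 with 42 libraries in 1 fit, 15022 with a pseudocount of 0.1, 14251 without a filter and 10217 at a mean of 5 TPM or more. Same-numbered leaf and root libraries correlated at 0.187, 0.229 and 0.0888 in their deviations from the group means. Each library correlated best with its own number, a hint from the data and not the design, so the numbers were not taken as pairs. With the block, the 94 named genes tested kept their calls.

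Median-of-ratios scaling gave 4887 genes higher in leaf and 6583 higher in root at 0 h, and quantile normalization 5027 and 6342. In the 48 h control quantile normalization gave 5076 and 6121. A limit of 3 on the difference left 3994 calls at 0 h (1248 and 2746) and 3881 in the control (1235 and 2646). The log2 ratio of leaf to root in summed level became 10.09 for photosystem and antenna proteins, -0.48 for nitrogen transporters, 0.94 for nitrate assimilation, 6.52 for carbon metabolism, -0.20 for amino acid metabolism and 0.34 for transcription factors with median-of-ratios scaling. On TPM they were 9.13, -1.44, -0.02, 5.56, -1.17 and -0.63, so that nitrate assimilation and transcription factors changed direction. Of 94 named genes tested, 19 gained or lost a call under some alternative, and none changed direction while called. Depth is unknown, so the counting error of low TPM values could not be given.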
